A study of Sus scrofa with 16 samples.

Results

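Satellite cells (SCs) of 4 wild-type (WT) piglets were each cultured in a proliferative state (PROL) and in a differentiated state (DIFF), and the differentiation response described here is the change in transcript level from PROL to DIFF within these animals. The samples were taken by their labels alone, as the 8 samples of WT genotype among 16 in the series, 4 in PROL and 4 in DIFF. The other 8 samples are SCs of 4 piglets with a deletion of *DMD* exon 52 (DMD) in the same states, and they enter only where the WT change is set beside the DMD change. The SCs came from the *intercostalis* muscle of male piglets aged 3 days and were enriched with magnetic beads by depletion of cells with CD31 or CD45 and selection of cells with ITGB1, NCAM1 or M-cadherin. PROL cells were grown to passage 6 in medium with 20% fetal bovine serum and basic fibroblast growth factor. DIFF cells were kept in medium with 5% horse serum, for 10 days in the methods of the sequencing and for 7 days in the methods of the culture. The kind and amount of serum, the growth factor and the time in culture thus changed together with the state and cannot be told apart from it.

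SCs are the resident stem cells of skeletal muscle. When they are activated they divide as myoblasts, and when growth factors are withdrawn they leave the cell cycle, fuse into myotubes and build sarcomeres, the contractile units of myosin, actin, troponin and tropomyosin that are anchored at the Z-disc. The myogenic regulatory factors *MYF5*, *MYOD1*, *MYOG* and *MYF6* and their partners of the MEF2 family drive these steps, and the inhibitors of DNA binding *ID1* and *ID2* hold them back.

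RNA was measured by 3′ mRNA-seq with unique molecular identifiers, and 3875 genes were counted. Totals ran from 1110050 to 1657300 counts per library in PROL and from 1572180 to 1762968 in DIFF, after the 2 technical duplicates of each sample had been added. Levels are given as CPM, counts brought to a common library total with library sizes scaled by the TMM method, and the 4 values of a group follow the order of replicates 1 to 4, each of which is 1 animal in both states. Of 3045 genes with a count in a WT library, 1921 passed the filter on low counts and were tested with the edgeR quasi-likelihood F test, with the animal as a block. A gene low in 1 state could pass through the other state alone, while genes low in both were left out. This favours the shares called in all gene lists. *SLN*, *PI16*, *CCL19*, *PDK4* and *TNFSF10*, with 2 to 24 counts over the PROL libraries, passed through DIFF alone. Genes were called where the *p* value, adjusted by the method of Benjamini and Hochberg, was under 0.05 and the log2 fold change was above 0.6 or below −0.6. Adjusted *p* values are from this test unless another is named, and the SE beside a fold change restates the test statistic. In these bulk samples, fewer cells of a type and less RNA per cell cannot be told apart.

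The identity of the cells could be checked in part. The SC markers *PAX7*, *NCAM1* and *CDH15* (M-cadherin) are not among the counted genes and were not analysed here. *MYF5* had no count in any of the 8 WT libraries, and *MYOD1* had 8 counts in PROL, all in replicate 1, and 4 in DIFF, all in replicate 4. *DES*, which encodes the muscle intermediate filament desmin, had 82 to 136 counts in each PROL library. The paper reports staining for PAX7 and desmin protein in the isolated cells of all samples. It also reports a band of MYOD protein in proliferating cells of both genotypes. Of the markers of other cell types, *PTPRC* (CD45) is not among the counted genes, and *PECAM1* (CD31) was at 16.2 to 24.1 CPM in PROL and 28.9 to 51.7 CPM in DIFF. Markers of fibroblasts and of the fibro-adipogenic progenitors of muscle were present in both states, and their values are given with the matrix genes. The blood and immune cell list held 23 counted genes, of which 7, among them *CD3E*, *CD8A* and *CD79B*, were at 0 in all WT libraries and 3 passed the filter.

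The response was broad. Of 1921 genes, 358 (18.6%) were called higher and 282 (14.7%) lower in DIFF, 640 (33.3%) in all, and 623 of these moved in the called direction in 4 of 4 animals. The calls in each gene list below are to be read beside these shares. The 4 DIFF libraries did not overlap with the 4 PROL libraries in 830 genes (43.2%), and lay above them in 444 (23.1%) and below them in 386 (20.1%). Among the called genes, muscle structure, matrix, complement, sterol synthesis and fuel switch genes were mostly higher, and genes of mitosis, DNA replication and chromatin were mostly lower. The first principal component held 69.5% of the variance of the 8 WT libraries and separated the states. The counts of both directions depend on the scaling. With library totals in place of TMM, 207 genes were higher and 579 lower, and the median log2 fold change of all genes moved from 0.04 to −0.31. None of the 113 tested genes picked by the naming rule changed direction under those of the 18 processing alternatives in which they were tested. All 113 were tested in 13 alternatives and 100 under the stricter count filter. The rule picked mainly called genes, 110 of the 113, with large changes or small *p* values. A lack of reversals is thus favoured by the choice.

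**Figure D1:**
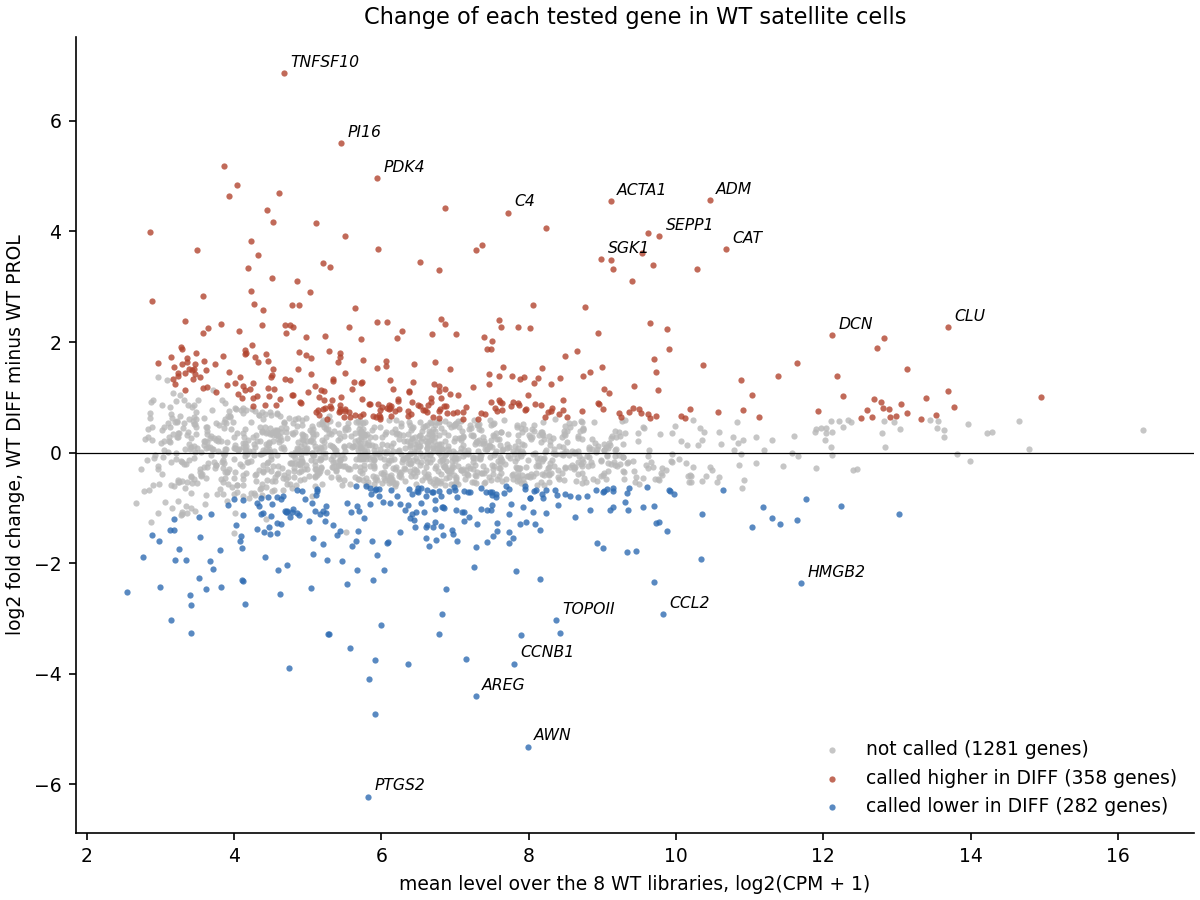
Each point is 1 of the 1921 genes tested in WT SCs. The horizontal axis is the mean level over the 8 WT libraries as log2(CPM + 1), the vertical axis the log2 fold change of DIFF against PROL, and the colours mark the 358 genes called higher, the 282 called lower and the genes not called. Called genes lie on both sides at low and at high levels, from *TNFSF10* and *PI16* at the top to *AWN* and *PTGS2* at the bottom.

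Contractile genes of skeletal muscle had the highest median of the 35 lists. Of 37 counted genes of the sarcomere and Z-disc, 19 passed the filter, 15 of these were called higher and 1 lower. Their median log2 fold change was 3.10, beside 0.04 for all genes tested. Members such as *ACTN2*, with 12 counts in PROL and 234 in DIFF, passed only through their DIFF counts. Members low in both states were left out, so the filter favours a high share called and a high median. Without the count filter 33 members were tested, 17 were called higher and 1 lower. Their median was then 2.346, beside 0.049 for all genes. *ACTA1*, which encodes skeletal α-actin, was at 60.5, 33.0, 43.6 and 43.5 CPM in PROL and at 1220.3, 715, 1089.7 and 1227 CPM in DIFF (log2 fold change 4.55, SE 0.11, adjusted *p* = 7.56e-14). The lowest DIFF library lay more than 10-fold above the highest PROL library. *MYL1* and *MYLPF*, which encode myosin light chains of fast fibers, also rose. *MYL1* was at 81.1, 76.3, 91.6 and 110.3 CPM in PROL and at 937, 738, 1026 and 1372 CPM in DIFF (log2 fold change 3.48, SE 0.10, adjusted *p* = 2.44e-13). *MYLPF* was at 69.3, 105, 142 and 137 CPM in PROL and at 1381, 1003, 1452 and 1672 CPM in DIFF (log2 fold change 3.61, SE 0.16, adjusted *p* = 5.66e-08). Every animal rose in both genes, and the groups were far apart. *ACTC1*, the cardiac α-actin that is also made by developing skeletal muscle, rose, with 103 to 179 CPM in PROL and 843 to 1774 CPM in DIFF (log2 fold change 3.10, SE 0.12, adjusted *p* = 3.38e-11).

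Low in PROL and clearly present in DIFF were genes of the thin filament and the Z-disc. *TNNC1*, the slow and cardiac troponin C, was at 1.47, 3.81, 3.27 and 3.11 CPM in PROL and at 33.0, 16.3, 34.9 and 42.1 CPM in DIFF (log2 fold change 3.33, SE 0.42, adjusted *p* = 6.7e-06). *ACTN2*, α-actinin of the Z-disc, was at 0, 2.54, 4.36 and 0 CPM in PROL and at 34.4, 31.1, 45.2 and 48.9 CPM in DIFF (log2 fold change 4.38, SE 0.54, adjusted *p* = 1.18e-05). The other members called higher were *TNNT1* (3.75), *MLC2V* (3.68), *CARP* (3.66), *TNNT2* (3.44), *TRIM55* (2.74), *LOC733663* (2.36), *TNNI1* (2.27), *DES* (1.88) and *CFL2* (0.70), each given as log2 fold change. *DES* was at 60.5, 68.6, 74.1 and 83.9 CPM in PROL and at 253, 225, 219 and 385 CPM in DIFF. Tropomyosins did not follow. *TPM3* was the 1 member called lower (log2 fold change −1.02, SE 0.13, adjusted *p* = 1.1e-05), and *TPM1* (0.28, adjusted *p* = 0.232) and *TPM2* (0.06, adjusted *p* = 0.662) were not called. The 18 members that did not pass the filter included the myosin heavy chains. *MYH2* and *MYH4* had no count in WT, *MYH1* had 8 counts over the 4 PROL libraries and 22 over the 4 DIFF libraries, and *MYH7* had 4 and 16. *MYH3*, *MYH8* and *CKM* are not among the counted genes.

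**Figure D2:**
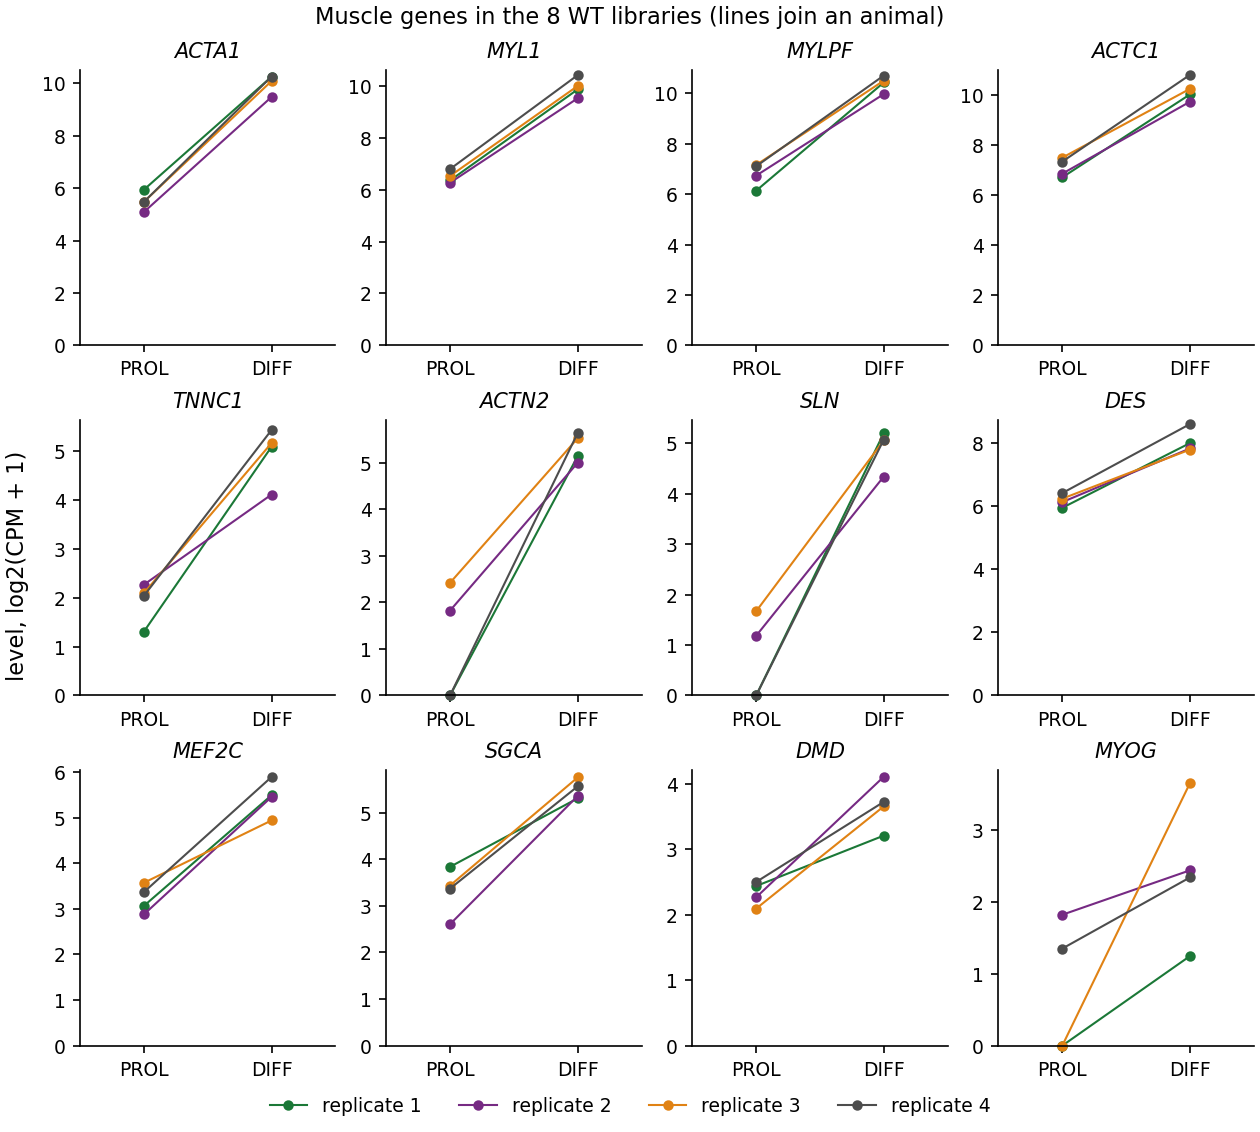
Level of 12 muscle genes as log2(CPM + 1) in PROL and DIFF, with 1 line for each of the 4 WT animals (replicates 1 to 4) and an axis of its own for each gene. All 4 lines of *ACTA1*, *MYL1*, *MYLPF*, *ACTC1*, *TNNC1*, *ACTN2*, *SLN*, *DES*, *MEF2C*, *SGCA* and *DMD* rise without overlap of the states, while *MYOG* rises in each animal but stays low and overlaps between the states.

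Regulators of myogenesis gave fewer calls. Of 15 counted regulators and fusion genes, 8 passed the filter, 1 was called higher and 3 lower, with a median log2 fold change of −0.32. *MYOG* had 6 counts over the PROL libraries and 32 over the DIFF libraries, 18 of them in replicate 3, and was not tested. *MYF6* was at 0 to 2.54 CPM in PROL and 0 to 1.48 CPM in DIFF. *MEF2C* was at 7.37, 6.35, 10.9 and 9.33 CPM in PROL and at 44.0, 42.9, 29.7 and 58.5 CPM in DIFF (log2 fold change 2.31, SE 0.31, adjusted *p* = 1.32e-05). *ID1* fell, with 675 to 867 CPM in PROL and 187 to 274 CPM in DIFF (log2 fold change −1.73, SE 0.11, adjusted *p* = 2.56e-09), and *ID2* likewise, with 222 to 307 CPM in PROL and 97.7 to 133 CPM in DIFF (log2 fold change −1.27, SE 0.12, adjusted *p* = 2.78e-07). *HES1*, a target of Notch signaling, was the third gene called lower (−1.76). The DIFF libraries lay below the PROL libraries in all of *ID1*, *ID2* and *HES1*.

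Genes of the membrane and of calcium handling did not all move one way. Of 6 tested genes of the dystrophin-associated complex and basal lamina, 5 were called higher and none lower, and their median was 1.15. *SGCA*, which encodes α-sarcoglycan, was at 13.3, 5.08, 9.81 and 9.33 CPM in PROL and at 38.5, 39.9, 52.9 and 46.2 CPM in DIFF (log2 fold change 2.27, SE 0.30, adjusted *p* = 1.23e-05), and *SGCE* (ε-sarcoglycan) at 139.9 to 179.9 CPM in PROL and 352 to 434 CPM in DIFF (log2 fold change 1.35, SE 0.11, adjusted *p* = 8.56e-08). *LOC100514785*, which matches the laminin γ1 chain gene *LAMC1*, rose (log2 fold change 0.96, SE 0.10, adjusted *p* = 5.95e-07). *DMD* itself was low, at 4.42, 3.81, 3.27 and 4.66 CPM in PROL and at 8.25, 16.3, 11.6 and 12.2 CPM in DIFF (log2 fold change 1.56, SE 0.46, adjusted *p* = 0.0107). Its groups did not overlap, but the call was lost without replicate 2 (log2 fold change 1.37, adjusted *p* = 0.0834). *SGCD* was the fifth gene called higher (0.86), and not without replicate 4 (adjusted *p* = 0.0596). Of 10 tested genes of excitation and calcium handling, 3 were called higher and 4 lower (median 0.03). *SLN*, which encodes sarcolipin, an inhibitor of the calcium pump of the sarcoplasmic reticulum, was at 0, 1.27, 2.18 and 0 CPM in PROL and at 35.8, 19.2, 32.3 and 32.6 CPM in DIFF (log2 fold change 4.84, SE 0.57, adjusted *p* = 4.12e-06). It had 6 counts over PROL and 176 over DIFF and passed the filter only through DIFF. *CAMK2D* (0.92) and *CACNA2D1* (1.28) rose. *RCAN1* (−1.47), *TMEM38B* (−0.93) and the calcium pump gene *ATP2A2* (−0.71) were among the members called lower, *TMEM38B* not without replicate 3 or 4 (adjusted *p* = 0.139 and 0.0581) or without the animal block (0.0632).

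Most genes of the dividing cell fell. Of 16 tested genes of mitosis and cytokinesis, 14 were called lower and none higher (median −2.39). *CCNB1*, the mitotic cyclin B1, was at 423, 480.4, 287 and 465 CPM in PROL and at 16.5, 41.4, 18.1 and 44.9 CPM in DIFF (log2 fold change −3.82, SE 0.18, adjusted *p* = 6.72e-10). *CCNA2* (cyclin A2) was at 150.4, 159, 123 and 173 CPM in PROL and at 5.50, 11.8, 15.5 and 9.52 CPM in DIFF (log2 fold change −3.82, SE 0.24, adjusted *p* = 2.99e-09), and *CDC20*, an activator of the anaphase-promoting complex, at 184 to 330.5 CPM in PROL and 6.88 to 37.0 CPM in DIFF (log2 fold change −3.73, SE 0.29, adjusted *p* = 1.23e-05). *CDK1*, the kinase partner of cyclin B, fell, with 172 to 248 CPM in PROL and 27.2 to 43.9 CPM in DIFF (log2 fold change −2.47, SE 0.17, adjusted *p* = 6.2e-09), the mitotic kinase gene *PBK* fell by 2.92 and the phosphatase gene *CDKN3* by 2.06 on the log2 scale. The summed level of the list was 2595 to 3549.8 CPM in PROL and 985 to 1071 CPM in DIFF, and 2 members were not called. *MKI67*, the widely used marker of cycling cells, was at 426, 426, 460.0 and 406 CPM in PROL and at 373, 325, 389 and 319 CPM in DIFF (log2 fold change −0.29, SE 0.09, adjusted *p* = 0.0125), and *CKS1B* was at 255 to 411 CPM in PROL and 263 to 314 CPM in DIFF. The groups of *MKI67* did not overlap, but its change was below the threshold of the call.

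Of 15 tested genes of DNA replication and S phase, 12 were called lower and none higher (median −1.59). *TOPOII*, the DNA topoisomerase II gene *TOP2A*, was at 574, 582, 604 and 595 CPM in PROL and at 50.9, 75.5, 73.6 and 92.4 CPM in DIFF (log2 fold change −3.02, SE 0.13, adjusted *p* = 3.33e-11). *PCNA*, the sliding clamp of DNA polymerase, was at 173 to 322 CPM in PROL and 75.5 to 91.7 CPM in DIFF (log2 fold change −1.62, SE 0.17, adjusted *p* = 1.96e-06), *RFC3*, a subunit of its loader, at 133 to 191 CPM in PROL and 49.1 to 60.7 CPM in DIFF (log2 fold change −1.59, SE 0.15, adjusted *p* = 2.73e-07), and *DNMT1*, the maintenance DNA methyltransferase, at 283 to 427 CPM in PROL and 142 to 179 CPM in DIFF (log2 fold change −1.29, SE 0.11, adjusted *p* = 9.83e-08). Of 13 chromatin proteins of dividing cells, 8 were called lower and 1 higher (median −1.17). *HMGB2* was at 5507, 6549, 4257 and 6008 CPM in PROL and at 874, 1212, 1141 and 1101 CPM in DIFF (log2 fold change −2.36, SE 0.11, adjusted *p* = 3.32e-10). *H2AFZ*, the histone variant H2A.Z, fell, with 1135 to 1532 CPM in PROL and 238 to 343 CPM in DIFF (log2 fold change −2.34, SE 0.09, adjusted *p* = 1.03e-11), and *HMGN2* fell by 1.93 on the log2 scale. The histone gene *HIST1H2BD* was the member called higher (1.60). In all of these lists the medians were lower in DIFF in each of the 4 animals.

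Of 15 tested genes of growth arrest and quiescence, 7 were called higher and 2 lower (median 0.59). *TXNIP*, a thioredoxin-binding protein that restrains glucose uptake, was at 88.5, 103, 148 and 77.7 CPM in PROL and at 978, 1148, 1184 and 809 CPM in DIFF (log2 fold change 3.32, SE 0.11, adjusted *p* = 9.81e-13). *CCNG1* (cyclin G1) was at 1284 to 1441 CPM in PROL and 2553 to 3029.5 CPM in DIFF (log2 fold change 1.05, SE 0.08, adjusted *p* = 3.8e-08), and *FOXO1*, a transcription factor that is held back by insulin and IGF signaling, at 140.1 to 189 CPM in PROL and 315 to 359 CPM in DIFF (log2 fold change 1.04, SE 0.12, adjusted *p* = 1.9e-06). *BTG1*, an antiproliferative gene, was higher in DIFF in 4 of 4 animals but under the fold threshold (log2 fold change 0.55, SE 0.10, adjusted *p* = 0.000396). It passed the threshold without replicate 1 (0.61) or replicate 3 (0.64). *KLF6* (−1.26) and *KLF2* (−1.06) were called lower, *KLF2* not without replicate 3 (adjusted *p* = 0.107). The cyclin-dependent kinase inhibitors *CDKN1A* and *CDKN1C* are not among the counted genes.

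Several switches of fuel use rose. Of 22 tested genes of fatty acid oxidation and the fasting response, 14 were called higher and none lower (median 0.89). With library totals in place of TMM 9 were called higher and 1, the dehydrogenase gene *ACADM*, lower, with a median of 0.54. *PDK4*, a kinase that blocks the entry of pyruvate into the citric acid cycle, was at 2.95, 3.81, 7.63 and 0 CPM in PROL and at 83.9, 99.1, 172 and 114 CPM in DIFF (log2 fold change 4.96, SE 0.33, adjusted *p* = 1.44e-08). *SGK1*, a kinase downstream of PI3K and glucocorticoids, was at 57.5, 83.9, 98.1 and 88.6 CPM in PROL and at 858, 793, 1001 and 1062 CPM in DIFF (log2 fold change 3.50, SE 0.11, adjusted *p* = 1.54e-12). *CAT*, the peroxisomal enzyme catalase, was at 227, 252, 232 and 225 CPM in PROL and at 3735, 2500.4, 2547 and 3445 CPM in DIFF (log2 fold change 3.68, SE 0.13, adjusted *p* = 2.78e-11). *ANGPTL4*, an inhibitor of lipoprotein lipase, rose, with 58.5 to 101 CPM in PROL and 442 to 499.7 CPM in DIFF (log2 fold change 2.68, SE 0.12, adjusted *p* = 7.88e-11). The enzymes of the oxidation itself had smaller fold changes: *CPT2* (1.20), *ACADL* (0.91) and *HADHA* (0.77) were called higher, *CPT1A* (0.33) was not. Of 17 tested genes of insulin, IGF and FOXO signaling, 9 were called higher and 2 lower (median 0.65), of which *PDK4*, *SGK1*, *TXNIP* and *FOXO1* are given above. *IGFBP5*, an IGF binding protein, was at 105, 118, 287 and 176 CPM in PROL and at 554, 416, 714 and 506 CPM in DIFF (log2 fold change 1.74, SE 0.16, adjusted *p* = 6.22e-06). *IGF1* was at 10.3, 10.2, 55.6 and 4.66 CPM in PROL and at 24.8, 38.5, 65.8 and 46.2 CPM in DIFF (log2 fold change 1.42, SE 0.40, adjusted *p* = 0.0117), with replicate 3 high in PROL and the groups overlapping, and it was not called without replicate 2 (adjusted *p* = 0.0655) or without the animal block (log2 fold change 1.06, adjusted *p* = 0.26). *IGF2* is not among the counted genes.

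Glycolysis and the respiratory chain gave few calls. Of 10 tested glycolysis genes, 2 were called lower and none higher (median −0.36): *LDHA* (lactate dehydrogenase A) fell, with 3344 to 4542 CPM in PROL and 1370.0 to 1889 CPM in DIFF (log2 fold change −1.30, SE 0.09, adjusted *p* = 4.39e-09), and *GAPDH* fell, with 4059 to 5375 CPM in PROL and 2208 to 2771 CPM in DIFF (log2 fold change −0.84, SE 0.10, adjusted *p* = 4.12e-06). Of 29 tested genes of the respiratory chain and ATP synthase, 4 (13.8%) were called lower and 1 (3.4%) higher (median −0.28). Of all genes tested, 14.7% were called lower and 18.6% higher. The share called lower was thus near that of all genes, and in glycolysis it was 20%. *CYCS*, cytochrome c, was at 838 to 1127 CPM in PROL and 257 to 308 CPM in DIFF (log2 fold change −1.80, SE 0.09, adjusted *p* = 1.94e-10), and *COX7A1*, the muscle form of a cytochrome c oxidase subunit, at 68.6 to 136 CPM in PROL and 213 to 268 CPM in DIFF (log2 fold change 1.24, SE 0.14, adjusted *p* = 1.93e-06), while *COX7A2*, its counterpart in other tissues, fell by 0.69 on the log2 scale. *NDUFB2* (−0.78) and *ATP5G1* (−0.70) were the others called lower. In the list of muscle energy reserve, the muscle phosphoglycerate mutase gene *PGAM2* rose (log2 fold change 1.73, SE 0.23, adjusted *p* = 1.28e-05) and the muscle enolase gene *ENO3* fell, with 175 to 235 CPM in PROL and 8.88 to 38.1 CPM in DIFF (log2 fold change −3.28, SE 0.37, adjusted *p* = 0.000366). With library totals in place of TMM, 6 glycolysis genes and 15 respiratory chain genes were called lower.

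Most enzymes of sterol and fatty acid synthesis rose. Of 15 tested genes, 12 were called higher and none lower, and all 15 fold changes were positive (median 1.38). *CYP51*, the lanosterol demethylase, was at 53.1, 64.8, 55.6 and 73.0 CPM in PROL and at 311, 340.3, 327 and 313 CPM in DIFF (log2 fold change 2.40, SE 0.13, adjusted *p* = 3.32e-10). *HMGCS1*, which makes HMG-CoA for the mevalonate pathway, was at 31.0, 21.6, 24.0 and 34.2 CPM in PROL and at 114, 121, 134 and 135 CPM in DIFF (log2 fold change 2.20, SE 0.18, adjusted *p* = 5.33e-08), and *FDPS*, which makes farnesyl diphosphate, at 211 to 273 CPM in PROL and 505 to 688 CPM in DIFF (log2 fold change 1.38, SE 0.10, adjusted *p* = 2.67e-08). *INSIG1* (2.62), *SQLE* (1.87) and *NSDHL* (0.79) were among the others called higher. *FASN* (0.87) and *SCD* (1.14) of fatty acid synthesis were also called higher. The summed level of the list was 528 to 605 CPM in PROL and 1548 to 1898 CPM in DIFF, without overlap of the groups.

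**Figure D3:**
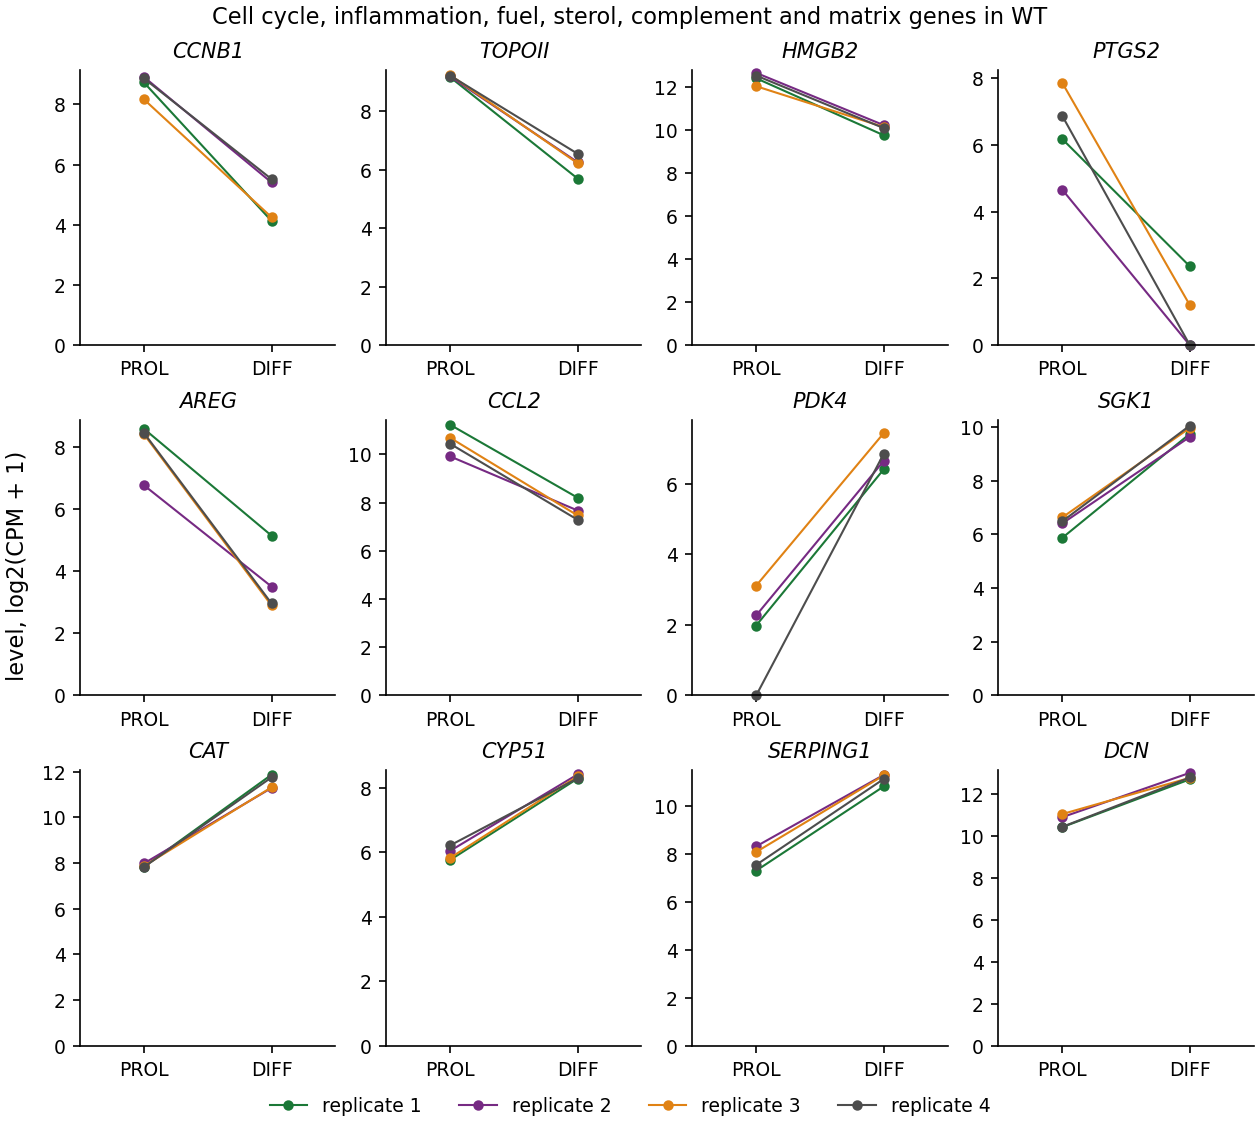
Level of 12 further genes as log2(CPM + 1) in PROL and DIFF, with 1 line for each of the 4 WT animals and an axis of its own for each gene. *CCNB1*, *TOPOII*, *HMGB2*, *PTGS2*, *AREG* and *CCL2* fall and *PDK4*, *SGK1*, *CAT*, *CYP51*, *SERPING1* and *DCN* rise in each animal.

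Matrix genes and markers of fibroblasts rose alongside the muscle genes. Of 23 tested markers of fibroblasts and fibro-adipogenic progenitors, 18 were called higher and 1 lower (median 1.62), and the summed level of the 26 counted members, all of which had counts in WT, was 13952 to 18177 CPM in PROL and 39927 to 44986 CPM in DIFF. The same sum over the sarcomere and Z-disc list was 3989.6 to 5426 CPM in PROL and 8074 to 12449 CPM in DIFF. The part of such cells in the results for matrix, complement and fuel genes was not tested. *DCN*, the matrix proteoglycan decorin, was at 1363, 1895, 2103 and 1377 CPM in PROL and at 6627, 8216, 6956 and 7040.1 CPM in DIFF (log2 fold change 2.12, SE 0.10, adjusted *p* = 1.95e-10). *LOX*, the enzyme that crosslinks collagen, was at 227, 334, 387 and 381 CPM in PROL and at 1183, 1697, 1658 and 1634 CPM in DIFF (log2 fold change 2.23, SE 0.09, adjusted *p* = 1.19e-11), and *MFAP5*, of the microfibrils, at 93.3 to 142 CPM in PROL and 693 to 869 CPM in DIFF (log2 fold change 2.63, SE 0.10, adjusted *p* = 1.06e-11). *PI16*, a peptidase inhibitor known as a marker of adventitial fibroblasts, was at 4.42, 0, 1.09 and 1.55 CPM in PROL and at 72.9, 76.9, 98.1 and 88.4 CPM in DIFF (log2 fold change 5.60, SE 0.42, adjusted *p* = 4.91e-08). The selenoprotein gene *GPX3* was the member called lower (−2.12).

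Among the fibrillar collagens, *COL3A1* was at 1388 to 1741 CPM in PROL and 4745 to 4928 CPM in DIFF (log2 fold change 1.62, SE 0.09, adjusted *p* = 4.64e-10), and *COL1A2* at 4535 to 5821 CPM in PROL and 7299.8 to 8858 CPM in DIFF (log2 fold change 0.64, SE 0.09, adjusted *p* = 1.19e-05), which fell under the fold threshold without replicate 4 (0.58). *POSTN*, which encodes periostin, was at 1195, 413, 1232 and 732 CPM in PROL and at 1383, 1212, 1454 and 1719.6 CPM in DIFF (log2 fold change 0.80, SE 0.26, adjusted *p* = 0.043). Its groups overlapped, and it was not called without replicate 2, 3 or 4 (adjusted *p* = 0.0898, 0.146 and 0.197). Over 27 tested genes of the matrix and its enzymes, 16 were called higher and 4 lower (median 0.85). Of the 31 counted members, 11 are also on the fibroblast list. *EFEMP1* (fibulin-3) was at 14.7, 63.5, 19.6 and 46.6 CPM in PROL and at 379.7, 685, 510.0 and 682 CPM in DIFF (log2 fold change 4.06, SE 0.20, adjusted *p* = 1.22e-07), and *PAMR1*, a peptidase domain protein named for muscle regeneration, at 5.90, 8.90, 13.1 and 12.4 CPM in PROL and at 194, 241, 189.8 and 258 CPM in DIFF (log2 fold change 4.42, SE 0.20, adjusted *p* = 4.7e-11). The 4 that fell were *MMP1*, the interstitial collagenase, at 71.2 to 166 CPM in PROL and 2.72 to 5.92 CPM in DIFF (log2 fold change −4.74, SE 0.29, adjusted *p* = 1.76e-09), *TNC*, the injury-associated matrix protein tenascin C, at 60.5 to 117 CPM in PROL and 2.96 to 10.9 CPM in DIFF (log2 fold change −3.54, SE 0.31, adjusted *p* = 1.4e-07), the plasminogen activator gene *PLAT* (−1.35) and the proteoglycan gene *VCAN* (−1.30). *SHAS2*, the hyaluronan synthase gene, fell by 3.76 on the log2 scale, with 59.7 to 147 CPM in PROL and 1.38 to 12.9 CPM in DIFF.

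All 8 tested complement genes had positive fold changes. Of these, 7 were called higher (median 1.99), and 3 of the 21 counted genes are also on the fibroblast list. *C4*, a component of the classical pathway, was at 13.3, 33.0, 17.4 and 15.5 CPM in PROL and at 355, 385, 502 and 355 CPM in DIFF (log2 fold change 4.34, SE 0.20, adjusted *p* = 7.28e-10). *SERPING1*, the inhibitor of C1, was at 156, 316, 269 and 185 CPM in PROL and at 1798, 2508, 2472 and 2231 CPM in DIFF (log2 fold change 3.31, SE 0.11, adjusted *p* = 1.92e-12), and *CLU* (clusterin), an inhibitor of the terminal complex, at 2693, 4775, 6144 and 4981 CPM in PROL and at 15232, 24792, 24581 and 22696 CPM in DIFF (log2 fold change 2.27, SE 0.10, adjusted *p* = 3.33e-11). *C2* (2.37), *CD55* (1.71) and *CFB* (1.65) were also called higher. *C7* had no count in PROL and 52 in DIFF, at least 14.2-fold higher with PROL set at a floor of 3 counts over the group. The subunits *C1QA* and *C1QB*, products of macrophages, were at 0.

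Inflammation was split. Of 22 tested chemokines, cytokines and inflammatory genes, 9 were called higher and 10 lower (median −0.56). *PTGS2*, the inducible cyclooxygenase, had the steepest fall of any tested gene, at 70.8, 24.1, 229 and 115 CPM in PROL and at 4.13, 0, 1.29 and 0 CPM in DIFF (log2 fold change −6.22, SE 0.50, adjusted *p* = 1.91e-06). *PTGES*, which acts after it in prostaglandin E2 synthesis, fell, with 567 to 1005 CPM in PROL and 318 to 409 CPM in DIFF (log2 fold change −1.03, SE 0.10, adjusted *p* = 3.95e-07). *CCL2*, a monocyte chemokine, was at 2401, 966, 1651 and 1389 CPM in PROL and at 293, 203, 176 and 155 CPM in DIFF (log2 fold change −2.92, SE 0.16, adjusted *p* = 4.96e-07), and *IL33* at 298 to 432 CPM in PROL and 112 to 166 CPM in DIFF (log2 fold change −1.29, SE 0.12, adjusted *p* = 3.66e-07). *IL8* had 138 counts in PROL and 2 in DIFF, a ratio of 0.0119 (95% interval from counting 0.00142 to 0.0436). On the other side, *CCL19*, a chemokine of lymphocytes, was at 1.47, 0, 3.27 and 1.55 CPM in PROL and at 52.3, 38.5, 32.3 and 58.5 CPM in DIFF (log2 fold change 4.69, SE 0.47, adjusted *p* = 7.11e-07). *TNFSF10*, the death ligand TRAIL, had 2 counts in PROL and 284 in DIFF, a ratio of 116.1 (95% interval from counting 31.8 to 963), and it was at 0 to 1.47 CPM in PROL and 40.0 to 56.4 CPM in DIFF. These intervals take each count as a molecule and cover counting error only. All deposited values were even, which is unexplained, and if counts exceed molecules the intervals are too narrow.

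Of 25 tested genes of the interferon response and antigen presentation, 14 were called higher and 1 lower (median 0.93). *ISG12(A)*, an interferon-induced gene, was at 100.3, 94.1, 61.0 and 60.6 CPM in PROL and at 504, 365, 389.9 and 266 CPM in DIFF (log2 fold change 2.27, SE 0.13, adjusted *p* = 9.41e-10), *PSME1*, a proteasome activator, at 460.0 to 591 CPM in PROL and 1026 to 1410.0 CPM in DIFF (log2 fold change 1.12, SE 0.10, adjusted *p* = 1.32e-07), and the transcription factor gene *IRF1* at 11.8 to 35.7 CPM in PROL and 49.5 to 86.5 CPM in DIFF (log2 fold change 1.64, SE 0.28, adjusted *p* = 0.00015). *DDX58*, the RNA sensor RIG-I, was the member called lower (−1.40), but it was not called without replicate 1, 2 or 3 (adjusted *p* = 0.149, 0.0806 and 0.0928), without the animal block (0.106) or by DESeq2 (0.0567), and without replicate 4 it did not pass the filter. Among those called higher, *IFIH1* was not called without replicate 1, 2 or 4 (adjusted *p* = 0.145, 0.0787 and 0.233). *OAS2* was not called without replicate 1 or 3 (0.0614 and 0.0714), and *IFIT3* not without replicate 2 or 4 (0.269 and 0.108). DESeq2 called none of *IFIH1*, *OAS2* and *IFIT3* (0.0743, 0.0612 and 0.0527). With library totals in place of TMM 9 members were called higher and 3 lower, and in the technical columns alone 9 and 7 were called higher. Where at least 50 counts in 4 libraries were required, 10 members were left and 6 of them were called higher.

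Immediate early genes are induced by serum and growth factors. Of 8 tested genes, 5 were called lower and none higher (median −0.71), and with library totals all 8 were called lower. *KLF5* did not pass the filter, but it was called higher without replicate 1 (3.38, adjusted *p* = 0.000882), without the count filter and in the fit of 16 libraries. *AREG* (amphiregulin), a ligand of the EGF receptor, was at 383, 108, 340.1 and 349.7 CPM in PROL and at 34.4, 10.4, 6.46 and 6.80 CPM in DIFF (log2 fold change −4.40, SE 0.42, adjusted *p* = 0.000232), with replicate 2 low in PROL and replicate 1 high in DIFF. *KLF6* (−1.26), *PHLDA2* (−0.93), *TNFRSF12A* (−0.79) and *MYC* (−0.64, and −0.55 without replicate 2, under the threshold) were the other members called lower. Of 18 tested genes of myostatin, follistatin and TGF-β signaling, 5 were called higher and 6 lower (median −0.11). *BMP4* was at 27.98 to 44.5 CPM in PROL and 147 to 235 CPM in DIFF (log2 fold change 2.32, SE 0.18, adjusted *p* = 3.07e-08), and *FST* (follistatin), which binds myostatin and activins, rose, with 0 to 16.2 CPM in PROL and 32.3 to 66.6 CPM in DIFF (log2 fold change 3.11, SE 0.66, adjusted *p* = 0.00623), but was not called without replicate 3 (adjusted *p* = 0.0835). *TGFBR3* (2.17), *TGFB3* (2.15) and *ACVR2A* (1.77) were also higher, and *TGFB1* (−0.99) and *SMAD7* (−1.47) lower. *ADM*, which encodes the vasodilator adrenomedullin, was at 114, 133, 95.9 and 115 CPM in PROL and at 2793, 2370.2, 3049.6 and 2594 CPM in DIFF (log2 fold change 4.56, SE 0.13, adjusted *p* = 9.81e-13). It is on the hypoxia list, where 4 of 14 tested genes were called higher and 3 lower (median −0.20), and with library totals 4 and 5. *VEGFA*, the vascular growth factor, was among the 3 that fell (−1.65).

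Most adhesion and cytoskeleton genes that were called were lower. Of 12 tested integrins and focal adhesion genes, 5 were called lower and 1, *ITGB8* (1.61), higher (median −0.36). *ITGB8* was not called without replicate 1 or 2 (adjusted *p* = 0.149 and 0.195) or with library totals in place of TMM (0.107). The caveolin gene *CAV2* fell (log2 fold change −1.39, SE 0.14, adjusted *p* = 1.03e-06), and so did *TES* (−1.33), *ACTN1* (−1.08), *CD47* (−0.68) and *CAV1* (−0.68, and −0.60 without replicate 4, under the threshold). *ITGB1*, used in the selection of the cells, was at 3073 to 4900.4 CPM in PROL and 3118 to 3783 CPM in DIFF (log2 fold change −0.28, SE 0.10, adjusted *p* = 0.0351) and was not called. Of 32 tested genes of the actin and microtubule cytoskeleton, 8 were called lower and 2 higher (median −0.27), and with library totals in place of TMM 16 were called lower. *PFN1* (profilin) was at 2573 to 3156 CPM in PROL and 1068 to 1321 CPM in DIFF (log2 fold change −1.34, SE 0.09, adjusted *p* = 4.74e-09), and the tubulin gene *TUBA1B* at 4294 to 4634 CPM in PROL and 1757 to 2154 CPM in DIFF (log2 fold change −1.22, SE 0.09, adjusted *p* = 1.47e-08). The 2 that rose were *RND3*, a small GTPase (log2 fold change 2.27, SE 0.15, adjusted *p* = 1.07e-08), and *CFL2*, the muscle cofilin (0.70, and 0.57 without replicate 1, under the threshold).

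All 44 counted genes of cytosolic ribosomal proteins were tested, and 16 were called higher and none lower (median 0.57). They held 34.0% to 37.3% of the counts of a PROL library and 38.1% to 41.8% of a DIFF library. The TMM factors were 1.11 to 1.16 in PROL and 0.861 to 0.918 in DIFF. With library totals in place of TMM the median was 0.22 and 3 were called. *RPL10* was at 4147 to 5017 CPM in PROL and 7992 to 9417 CPM in DIFF (log2 fold change 0.96, SE 0.08, adjusted *p* = 7.15e-08). *RN18S*, the 18S ribosomal RNA gene, had a log2 fold change of 0.40 (adjusted *p* = 0.0545) and was not called. Of 27 tested chaperones and folding genes, 3 were called lower, *FKBP4* (−1.42), *DNAJB11* (−0.66) and *CCT7* (−0.60, and −0.54 without replicate 3, under the threshold). Of 13 tested proteasome genes, *PSME3* (−0.91), *PSMA5* (−0.80) and *PSMB6* (−0.64, and −0.59 and −0.60 without replicate 1 or 2, under the threshold) were called lower. None was called higher in either list (medians −0.15 and −0.26). The shares called lower were 11.1% and 23.1%, beside 14.7% of all genes tested. With library totals, 13 chaperones and folding genes and 7 proteasome genes were called lower.

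Of 29 tested genes of autophagy and the lysosome, 6 (20.7%) were called higher and 1 (3.4%) lower, beside 18.6% and 14.7% of all genes tested. The share called higher was thus near that of all genes. Their median was 0.29, and −0.06 with library totals in place of TMM, where 3 were called higher and 2 lower. The member called lower, *ATG5* (−0.60), was under the threshold without replicate 1 or 4 (−0.56 and −0.54). *CTSL*, the protease cathepsin L, was at 342 to 519.9 CPM in PROL and 824 to 1140.0 CPM in DIFF (log2 fold change 1.21, SE 0.08, adjusted *p* = 8.56e-09), and *MAP1LC3A*, of the autophagosome, at 155 to 221 CPM in PROL and 386 to 475 CPM in DIFF (log2 fold change 1.24, SE 0.11, adjusted *p* = 1.4e-07). Among 25 tested antioxidant genes and selenoproteins, 6 (24%) were called higher and 4 (16%) lower, also near the shares of all genes. Their median was 0.16, and −0.19 with library totals, where 5 and 7 were called. *SEPP1*, which encodes selenoprotein P, the selenium carrier of plasma, was at 109, 103, 100.3 and 119.7 CPM in PROL and at 1330.4, 1663, 1593 and 1967 CPM in DIFF (log2 fold change 3.91, SE 0.10, adjusted *p* = 8.99e-14). *GPX1* (1.32) and *CAT* rose as well. *AKR1C1*, an aldo-keto reductase gene, was at 308, 118, 1153 and 162 CPM in PROL and at 64.7, 13.3, 71.0 and 10.9 CPM in DIFF (log2 fold change −3.29, SE 0.33, adjusted *p* = 0.000289), with replicate 3 high in PROL.

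The markers of smooth muscle, endothelial, fat and neural cells were called in both directions. Of 14 tested genes of smooth muscle and pericytes, 3 (21.4%) were called higher and 1 (7.1%) lower (median 0.04), and with library totals 2 and 5. Of all genes tested, 18.6% were called higher and 14.7% lower. *RGS5*, a pericyte marker, was at 82.6, 38.1, 221 and 80.8 CPM in PROL and at 1.38, 7.40, 9.04 and 5.44 CPM in DIFF (log2 fold change −4.09, SE 0.36, adjusted *p* = 1.46e-06). *CNN1* (calponin) was at 28.02, 11.4, 29.4 and 15.5 CPM in PROL and at 154, 20.7, 34.9 and 61.2 CPM in DIFF (log2 fold change 1.43, SE 0.35, adjusted *p* = 0.00504) with overlapping groups, and it was not called without the animal block (adjusted *p* = 0.0737). *ACTA2*, the smooth muscle α-actin, was not called (0.34), and *TAGLN* was not either (−0.42). Of 8 tested endothelial genes, 3 were called higher and 2 lower (median 0.02), and with library totals 1 and 3. *THBD* (thrombomodulin) was at 7.77 to 25.1 CPM in PROL and 18.1 to 59.2 CPM in DIFF (log2 fold change 1.81, SE 0.32, adjusted *p* = 0.000204) and *ERG*, an endothelial transcription factor gene, at 85.2 to 119 CPM in PROL and 31.6 to 62.5 CPM in DIFF (log2 fold change −1.05, SE 0.20, adjusted *p* = 0.000376). *PECAM1* rose (log2 fold change 0.90, SE 0.26, adjusted *p* = 0.00794), but not without replicate 4 (adjusted *p* = 0.0583), and then only *THBD* of the 3 was called higher and only *ERG* of the 2 lower. The endothelial sums were 259.5 to 322 CPM in PROL and 242 to 309.9 CPM in DIFF, *VWF* had 2 counts in DIFF and none in PROL, and *CLDN5* was at 0. Of 14 tested adipocyte and lipid storage genes, 5 were called higher and 2, *RBP4* (−1.68) and *FABP5* (−1.54), lower (median 0.61). *ADIPOQ* and *LPL*, 2 counted members of this list, were at 0. Among 3 tested neural and glial genes, *NPY* was called lower (−2.30) and *NEFL* higher (1.63), and no blood cell gene was called (median −0.40 over 3).

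**Figure D4:**
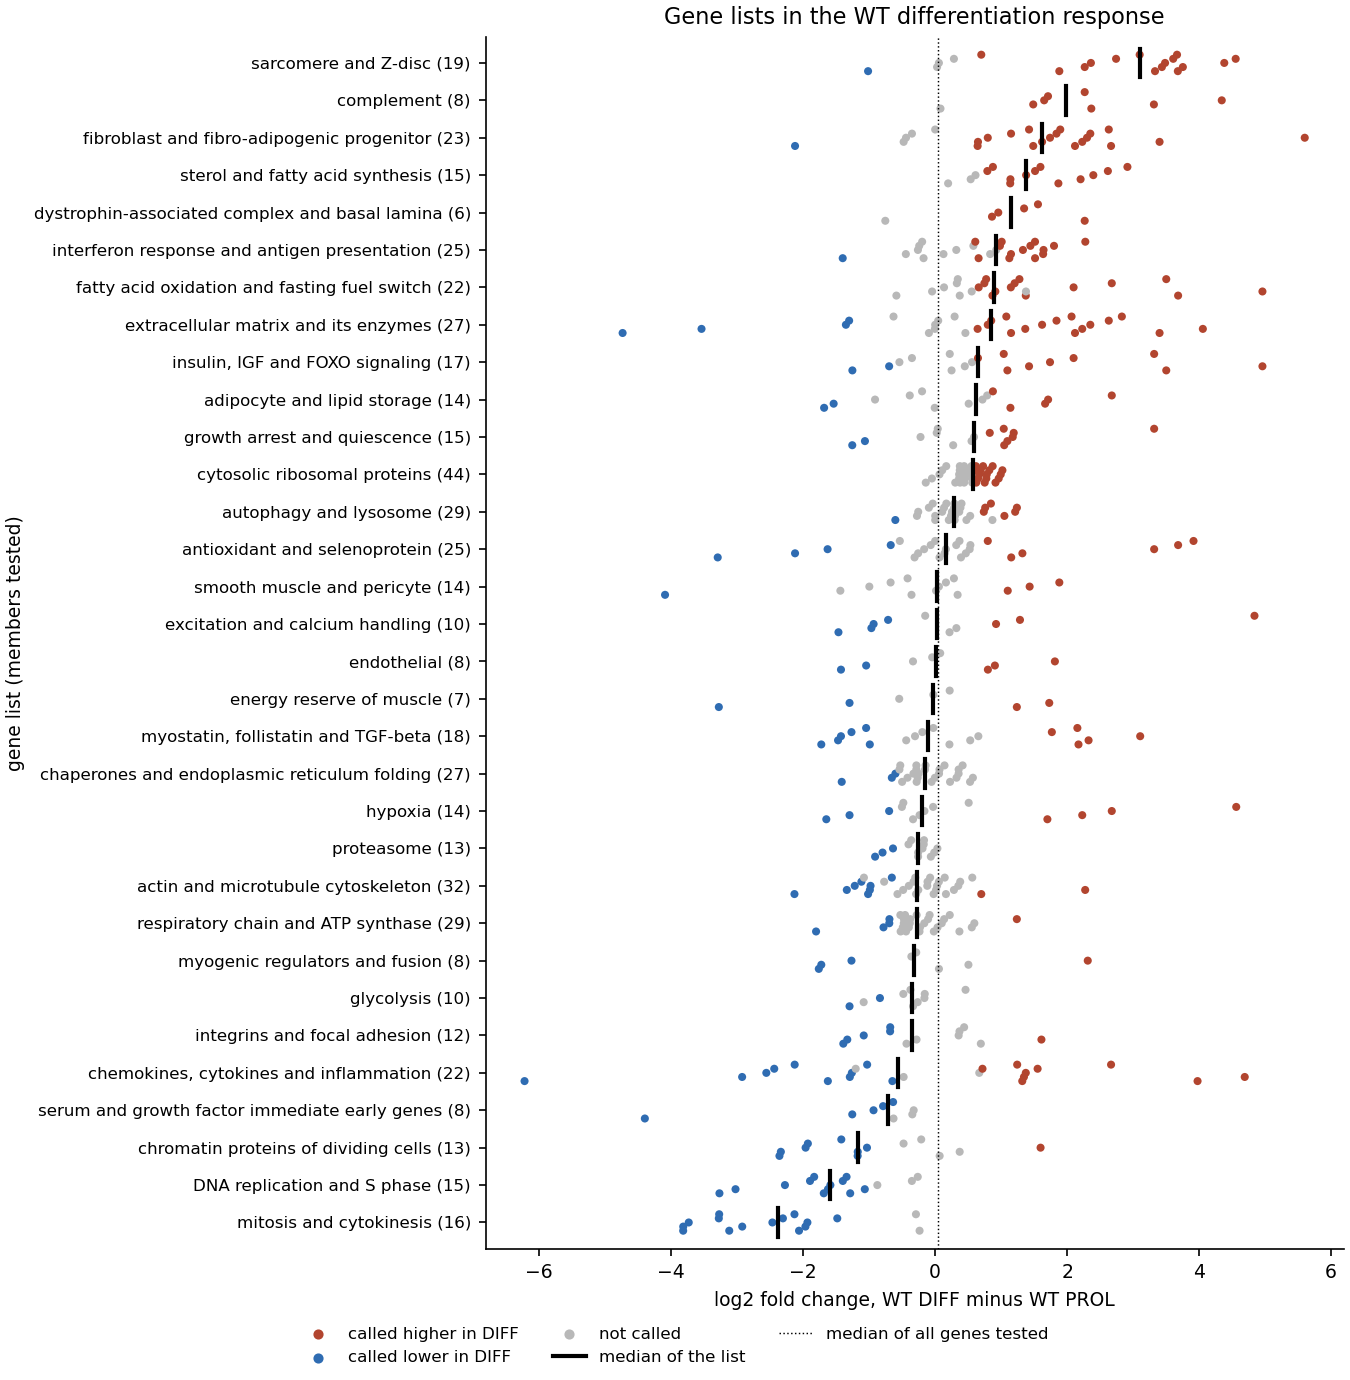
Each row is a gene list with at least 5 members tested, ordered by its median, with the number tested in brackets. Each point is a member's log2 fold change of DIFF against PROL in WT, coloured by its call, black bars are the medians of the lists and the dotted line is the median of all 1921 genes. The lists run from mitosis and cytokinesis (median −2.39) to sarcomere and Z-disc (3.10).

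The remaining genes of the 12 largest increases and decreases are on none of these lists. *PALMD*, the gene of palmdelphin, was at 0, 1.27, 2.18 and 6.22 CPM in PROL and at 31.6, 38.5, 32.3 and 65.2 CPM in DIFF (log2 fold change 4.17, SE 0.44, adjusted *p* = 1.14e-06), and *CD302*, a lectin receptor gene, at 0, 1.27, 6.54 and 6.22 CPM in PROL and at 63.3, 69.5, 55.5 and 66.6 CPM in DIFF (log2 fold change 4.16, SE 0.49, adjusted *p* = 3.58e-05). *AWN*, which encodes a spermadhesin, was at 496, 221, 884 and 371 CPM in PROL and at 15.1, 13.3, 10.3 and 8.16 CPM in DIFF (log2 fold change −5.32, SE 0.30, adjusted *p* = 3.37e-06). *CALCB*, which encodes a calcitonin gene-related peptide, was at 56.0, 38.1, 74.1 and 26.4 CPM in PROL and at 2.75, 2.96, 2.58 and 4.08 CPM in DIFF (log2 fold change −3.89, SE 0.38, adjusted *p* = 3.92e-07). The rule that picked these 4 genes required that no PROL library overlap with a DIFF library.

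To ask where the WT response differed from that of DMD SCs, the difference of the 2 changes was tested over all 16 libraries. It was called in 492 of 2030 genes (24.2%), with the more positive change in WT in 262 (12.9%) and in DMD in 230 (11.3%). One DMD PROL library, of replicate 4, stood apart with 20.4% of its counts in *RN18S*. Without that animal 490 genes were called. With library totals in place of TMM the split was 139 and 401. The 24 genes with the largest WT changes were chosen on the WT samples that are part of this test, so that a larger change in WT is favoured by the choice. Of these 24, 14 were called, 9 that rose in WT and 5 that fell, and 14 without DMD replicate 4.

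Several muscle structure genes rose more in WT. This is a statement on the change from PROL to DIFF, and levels in DMD cells are not given here. The paper reports *MYL1* and *MYLPF* transcripts as higher in DMD than in WT cells in both states. For *ACTA1*, the log2 fold change in the fit of all 16 libraries was 4.57 in WT and 2.56 in DMD (difference 2.01, SE 0.26, adjusted *p* = 0.000148). For *MYL1* it was 3.50 and 1.13 (difference 2.37, SE 0.24, adjusted *p* = 3.01e-05), and for *MYLPF* 3.63 and 1.19 (difference 2.44, SE 0.34, adjusted *p* = 0.00069). In the sarcomere and Z-disc list, 11 of 28 tested genes had the more positive change in WT and 2 in DMD. *SGK1* was at 3.52 in WT and −0.35 in DMD (difference 3.88, SE 0.27, adjusted *p* = 7.61e-09), *SEPP1* at 3.93 and 0.45 (difference 3.48, SE 0.15, adjusted *p* = 5.25e-12), *SERPING1* at 3.33 and −0.02 (difference 3.36, SE 0.20, adjusted *p* = 1.69e-09), and *EFEMP1* at 4.08 and −0.90 (difference 4.98, SE 0.25, adjusted *p* = 1.18e-10). *PDK4* was at 5.00 and 0.87 (difference 4.14, SE 1.22, adjusted *p* = 0.0205), and this difference was not called by DESeq2 (adjusted *p* = 0.0955).

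Other genes had the more negative change in WT. *PTGS2* was at −6.19 in WT and −0.59 in DMD (difference −5.60, SE 0.84, adjusted *p* = 0.000187), *AREG* at −4.38 and −0.11 (difference −4.27, SE 0.50, adjusted *p* = 0.000243), and *CCL2* at −2.91 and 0.91 (difference −3.81, SE 0.28, adjusted *p* = 8.08e-06). *CYCS* was at −1.79 and 0.38 (difference −2.16, SE 0.13, adjusted *p* = 4.04e-10). *ANGPTL4* rose in both, by 2.69 in WT and 4.93 in DMD (difference −2.24, SE 0.22, adjusted *p* = 2.06e-07). In the cytosolic ribosomal protein list, 25 of 44 genes had the more positive change in WT and none in DMD. The fall of mitotic genes gave few differences. In mitosis and cytokinesis, 1 of 17 tested genes had the more positive change in WT and 1 in DMD. *CCNB1* was at −3.80 and −3.26 (difference −0.54, SE 0.24, adjusted *p* = 0.109), which was not called but was called with library totals (−0.83, adjusted *p* = 0.0114) and without WT replicate 4 (−0.73, adjusted *p* = 0.0406). *CYP51* was at 2.41 and 1.91 (difference 0.50, SE 0.21, adjusted *p* = 0.0805), and it was called without DMD replicate 4 (0.64, adjusted *p* = 0.0309).

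**Figure D5:**
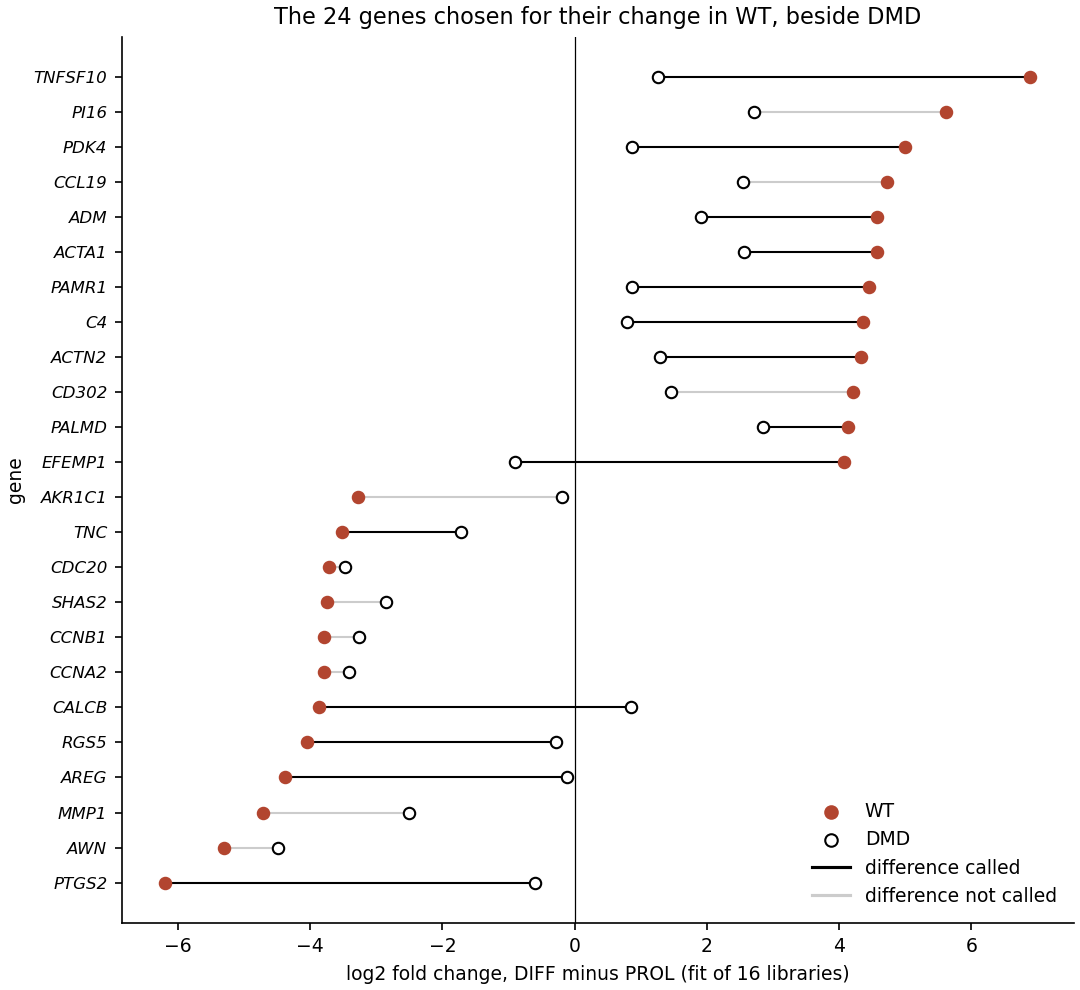
The 24 genes with the largest changes in WT, with the log2 fold change of DIFF against PROL in WT (filled) and in DMD (open) from the fit of 16 libraries. Black lines mark the 14 genes whose difference was called. The genes were chosen for their change in WT, and the open points lie nearer to 0 or across it in all 24.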

How the data were processed

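RNA of satellite cells from 4 WT and 4 DMD piglets, each in PROL and DIFF, was sequenced by the authors from 25 ng of total RNA as 3′ libraries with unique molecular identifiers and 2 technical duplicates per sample. Per the methods, reads were collapsed with UMI-tools, aligned to susScr3 with STAR 2.7.10b and counted per gene with its GeneCounts option. The annotation and strand setting are not given in the sources used here, so overlapping, antisense and near-identical genes are uncertain. The deposited values are whole-number counts, not normalized. All 124000 values were even, which the sources do not explain, and halved counts were tried. Technical duplicates were added. Of 3875 gene names, 3502 matched current pig symbols, 204 older ones and 84 LOC identifiers, and 85 matched none.

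Tests used edgeR 4.0.16 under R 4.3.3 (filterByExpr with a minimum count of 10 and a minimum total of 15, TMM, robust glmQLFit, quasi-likelihood F test, Benjamini-Hochberg adjustment over all genes tested). WT was fitted on its 8 libraries, and the difference to DMD on all 16. The common biological coefficient of variation was 0.14 in WT. The animal was a block, since both states came from the same animals by the titles. Deviations of the same animal correlated at 0.135 to 0.204 between states and those of other animals at −0.154 to 0.0183. Without the block 343 genes were higher and 275 lower. The SE is the log2 fold change divided by the square root of F. On simulated counts with 100 genes changed by 1 and 100 by 2 on the log2 scale, the WT test over 1921 genes recovered 83% and 95% with 0 other calls. The test of the difference over 2030 genes recovered 58% and 85% with 7 other calls. The simulated rises and falls were equal in number and were drawn with the estimated library scaling. The simulation therefore does not test the scaling, on which the counts of calls in the data depend.

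Named genes were the 12 largest increases and decreases among called genes with a mean of at least 20 CPM and no overlap of the groups, the 3 called members with the smallest *p* of each of 35 lists, and a fixed set, 117 in all, of which 113 were tested and 110 called. Another 8 of the fixed set are not among the counted genes. Other genes given with values were chosen after their values were seen. The members and lists were chosen with earlier results of these data known. Alternatives were DESeq2 1.42.0, limma 3.58.1 with voom, other scalings, filters, thresholds and technical columns, and leaving out each animal. Ratios of low counts have 95% intervals that are exact only if each count is a molecule. The floor for a group at 0 was 3 counts over the group. Sequences and coordinates were not used here, and a few genes, 2 of the named ones among them, are not reported here.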

Additional observations from a re-analysis of the deposited data

Results flagged for a closer look

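In 16 of 228 groups of 4 WT libraries of a named gene, 1 library lay far from the other three, a gap that chance gives in about 1 of 20 groups. In DIFF, replicate 1 stood apart in *AREG* at 34.4 CPM (others 6.46 to 10.4), *LOX* at 1183 CPM (others 1634 to 1697) and *FABP5* at 28.9 CPM (others 10.4 to 12.9). In DIFF, replicate 2 stood apart in *RFC3* at 60.7 CPM (others 49.1 to 50.9). In DIFF, replicate 3 stood apart in *MFAP5* at 869 CPM (others 693 to 715) and *ANGPTL4* at 499.7 CPM (others 442 to 449.8). In DIFF, replicate 4 stood apart in *MYOD1* at 2.72 CPM (others 0). In PROL, replicate 1 stood apart in *TNFSF10* at 1.47 CPM (others 0), *THBD* at 25.1 CPM (others 7.77 to 8.90) and *MYOD1* at 5.90 CPM (others 0). In PROL, replicate 2 stood apart in *AREG* at 108 CPM (others 340.1 to 383). In PROL, replicate 3 stood apart in *DNMT1* at 283 CPM (others 409 to 427), *IL33* at 432 CPM (others 298 to 302), *GAPDH* at 5375 CPM (others 4059 to 4239.8), *PFN1* at 2573 CPM (others 3084 to 3156) and *IGF1* at 55.6 CPM (others 4.66 to 10.3). No explanation was tested.

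The change from PROL to DIFF differed between WT and DMD in 68 of the 113 named genes reported here that could be fitted over all 16 libraries. Over all genes tested it differed in 492 of 2030 (24.2%). Calls are from the edgeR test of the difference itself, and values are the WT minus the DMD log2 fold change. Many of the named genes were chosen for their WT change, so a larger change in WT is favoured by the choice. Of the 68, 67 were also called without DMD replicate 4, all but *RND3*. Among muscle structure and regulator genes, the WT change was the more positive in *ACTA1* (2.01), *ACTN2* (3.05), *MYL1* (2.37), *MYLPF* (2.44), *TNNC1* (2.32), *ACTC1* (1.42), *DES* (1.07), *SLN* (4.32), *MEF2C* (1.89), *SGCE* (1.33), *SGCA* (2.30), *COX7A1* (1.25) and *PGAM2* (1.39). Among fuel, lysosome and growth arrest genes it was the more positive in *PDK4* (4.14), *SGK1* (3.88), *CAT* (2.98), *SEPP1* (3.48), *TXNIP* (1.17), *CCNG1* (0.94), *CTSL* (1.35) and *NPC2* (0.75). Among matrix, complement and interferon genes it was the more positive in *EFEMP1* (4.98), *PAMR1* (3.58), *LOX* (1.79), *DCN* (1.36), *POSTN* (1.72), *C4* (3.58), *SERPING1* (3.36), *CLU* (1.23), *ISG12(A)* (2.34) and *PSME1* (1.32). Ligands, ribosomal proteins and others on this side were *TNFSF10* (5.63), *ADM* (2.66), *BMP4* (1.97), *PALMD* (1.30), *NEFL* (3.30), *RND3* (0.68), *RPL10* (1.10) and *RPS28* (1.02). In genes of dividing cells and in ID1, which fell in both genotypes, the WT change was the less negative, in *HMGB2* (1.41), *DNMT1* (0.79), *PCNA* (0.72) and *ID1* (0.88). The WT change was the more negative in the inflammatory and growth factor genes *PTGS2* (−5.60), *PTGES* (−1.66), *CCL2* (−3.81), *AREG* (−4.27), *KLF6* (−1.29) and *PHLDA2* (−1.51). Fuel, matrix, contractile and vascular genes on this side were *LDHA* (−1.46), *CYCS* (−2.16), *ANGPTL4* (−2.24), *FABP5* (−3.00), *IGF1* (−4.53), *MFAP5* (−1.26), *COL1A2* (−0.83), *CNN1* (−3.93), *TNC* (−1.80), *RGS5* (−3.77) and *ERG* (−1.58). The rest on this side were *CALCB* (−4.72), *CAV2* (−1.71), *ITGB1* (−0.87), *PFN1* (−0.80), *TUBA1B* (−0.71), *DNAJB11* (−0.66), *PSMA5* (−0.70) and *PSME3* (−1.47).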

How the results depend on the processing

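In the WT comparison, 18 alternatives gave 207 to 503 genes higher and 173 to 579 lower, beside 358 and 282. The counts moved by over 1.5 times in 3 settings. Library totals in place of TMM gave 207 higher and 579 lower, of which 489 were among the 640 calls in the same direction. Dropping the fold threshold gave 451 lower, and a log2 fold change over 1 gave 221 higher and 173 lower, both by construction. Without the replicate block 343 were higher and 275 lower, and 610 of the 640 calls were shared. DESeq2 gave 326 and 269. Leaving out 1 animal gave 337 to 353 higher and 267 to 284 lower. The list members called, 259 of 513 tested, ranged from 193 to 356, beside 640 of all 1921 genes (33.3%) in the main fit. The lists were chosen with earlier results of these data known, so this count is not a result about them. The difference between WT and DMD was called in 492 genes, in 476 without the replicate block, in 462 by DESeq2, in 540 with library totals, in 449 to 465 without 1 WT animal and in 490 without DMD replicate 4, which was chosen after seeing the data.

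Of the 113 named genes tested, of which the alternatives kept 100 to 113, none changed direction. As 110 of them were picked as called genes, this is favoured by the choice. With the stricter count filter, 2 of 5 tested adipocyte, 4 of 5 complement and 3 of 9 TGF-β genes were called higher and 6 of 15 inflammatory genes lower. In 1 technical column alone, 2 excitation genes were called lower, 3 dystrophin complex genes higher and 3 adipocyte genes higher. *POSTN* was not called in 11 alternatives beside the stricter fold threshold, *PECAM1* in 4, and *CNN1* and *IGF1* not without the replicate block (adjusted *p* = 0.0737 and 0.26 by edgeR). *CAMK2D*, *RPS28*, *NPC2* and *COL1A2* were under the fold threshold with library totals (0.57, 0.52, 0.39 and 0.29), and *ITGB1* passed it (−0.63). *NEFL* and *PSME3* were not called in the first technical column alone (adjusted *p* = 0.108 and 0.165). The difference of *PALMD* was not called without the replicate block (adjusted *p* = 0.0874), with library totals or without WT replicate 1, 2 or 3 (0.0918, 0.121 and 0.0699). That of *POSTN* was not called with library totals (0.0533) or without WT replicate 4 (0.0573), and those of *DNMT1*, *ID1* and *NPC2* were under the fold threshold with library totals (0.51, 0.59 and 0.46). That of *PCNA* was not called with library totals (0.182) or without WT replicate 3 or 4 (0.0871 and 0.0568), and that of *RND3* not with library totals (0.158) or without WT replicate 2 (0.0987) or DMD replicate 4 (0.0773). The causes were not tested. Depth limits genes of few counts, such as *MYOG* and the myosin heavy chains, which did not pass the filter.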
